A study of Mus musculus with 18 samples.

Results

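The 10 genes described here were Rcc2, Taf10, Sall3, Zfp660, Prdm10, Zbtb42, Trim66, Fam168b, Cep85 and Cnbd2, of 54307 genes in the deposited table. They were taken by gene symbol from a list of 10 mRNAs that had been picked for high values in small extracellular vesicles (sEVs) against cells, so the difference between sEVs and cells chose them and is given below as a description, without a test. The list had been put together as mRNAs of nuclear proteins. From general knowledge of the genes, 7 of them encode proteins that act in the nucleus or on chromosomes. Cep85 encodes a centrosome protein, Fam168b a membrane-associated protein of neurons, and Cnbd2 a cyclic nucleotide-binding protein known from sperm, so the shared name does not cover them.

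The study asked whether brain cell types differ in the mRNA of the sEVs they release. Polyadenylated RNA was sequenced from 18 libraries of mouse brain primary cultures, in 6 groups of 3 replicates: astrocyte sEVs and astrocytes, microglia sEVs and microglia, neuron sEVs and neurons. No genotype, strain, age or treatment is given for any group. The sEV RNA and the RNA of the source cells were extracted with different column kits, and cDNA was primed at the poly(A) tail and amplified with 15 PCR cycles. The labels do not say that replicates of a group are separate cultures, so p-values measure only the spread between these samples, which may be technical.

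Small extracellular vesicles are membrane-bound particles that cells shed into the medium, and they carry proteins and RNA of the cell that released them. Their mRNA is sampled from the cytoplasm, so an mRNA whose protein works in the nucleus can be found there like any other. Many zinc finger and chromatin proteins are made from mRNAs that are scarce in the cell.

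Totals of normalized counts ran from 40672561 to 54740814 in sEV libraries and from 36947428 to 69276566 in cell libraries, and 11470 to 13962 genes of astrocyte sEVs, 7840 to 10059 of microglia sEVs and 15157 to 15951 of neuron sEVs had a value of at least 10. Of the marker genes, 7 astrocyte markers summed to between 424820 and 734587 in astrocyte sEVs and to between 907668 and 1117490 in astrocytes, 7 microglia markers to between 44062 and 66298 in microglia sEVs and to between 225436 and 238891 in microglia, and 7 neuron markers to between 27528 and 42053 in neuron sEVs and to between 159443 and 180345 in neurons. The astrocyte markers also summed to between 99665 and 135308 in neuron sEVs and to between 116842 and 135054 in neurons. Tmem119, a defining microglia marker, was listed at 0 in all microglia sEV libraries. A set of 5 oligodendrocyte genes summed to between 75432 and 163114 in astrocyte sEVs and to between 228355 and 417079 in astrocytes, and the part of these other cell types' transcripts in the values below was not tested.

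The 10 mRNAs together made up far more of the sEV than of the cell libraries, and 3 of them carried most of it. They took 0.506% ± 0.032 of the normalized counts in astrocyte sEVs against 0.0148% ± 0.0018 in astrocytes (SD, n = 3 each, as throughout). In microglia sEVs they took 1.91% ± 0.14, against 0.00913% ± 0.00105 in microglia. In neuron sEVs the share was 0.831% ± 0.032, against 0.0144% ± 0.0011 in neurons. Rcc2 alone held 0.265% of astrocyte sEV and 0.558% of neuron sEV counts, Fam168b 0.139% and 0.183% of the same groups, and Cep85 1.88% of microglia sEV counts. In bulk samples such as these, fewer cells or vesicles with an mRNA and less of it in each cannot be told apart.

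Neuron sEVs held the highest mean of 6 of the 10 genes, Rcc2, Taf10, Zfp660, Fam168b, Trim66 and Zbtb42, and astrocyte sEVs that of Sall3, and all 7 had their lowest mean in microglia sEVs. For Zbtb42, microglia and astrocyte sEVs overlapped, and the order of its sEV groups changed in several alternatives. Microglia sEVs held the highest mean of the other 3, Cep85, Cnbd2 and Prdm10. For 7 of the 10, the type with the highest sEV mean was also the type with the highest cell mean, and for Prdm10 and Zbtb42 it was the type with the lowest. Cnbd2 is among the 7 although its cell groups overlapped, and for Prdm10 and Zbtb42 the highest sEV group overlapped the next. The share of all genes with such a match was not worked out. Per kb of the longest annotated transcript, Cep85 stood at 262299 ± 17423 normalized counts in microglia sEVs, the 10th place among the genes tested there, Rcc2 at 73309 ± 6133 in neuron sEVs and 29508 ± 4272 in astrocyte sEVs, the 34th and 43rd places, and Zbtb42 at 44.9 ± 18.2 in neuron sEVs, place 11777. The place of Cep85 is uncertain. Its reads may come from a shorter noncoding transcript or from other genes that share sequence with it, as described below. As listed, the 10 genes cover sEV levels from among the highest of all genes tested down to scarce ones.

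**Figure D1:**
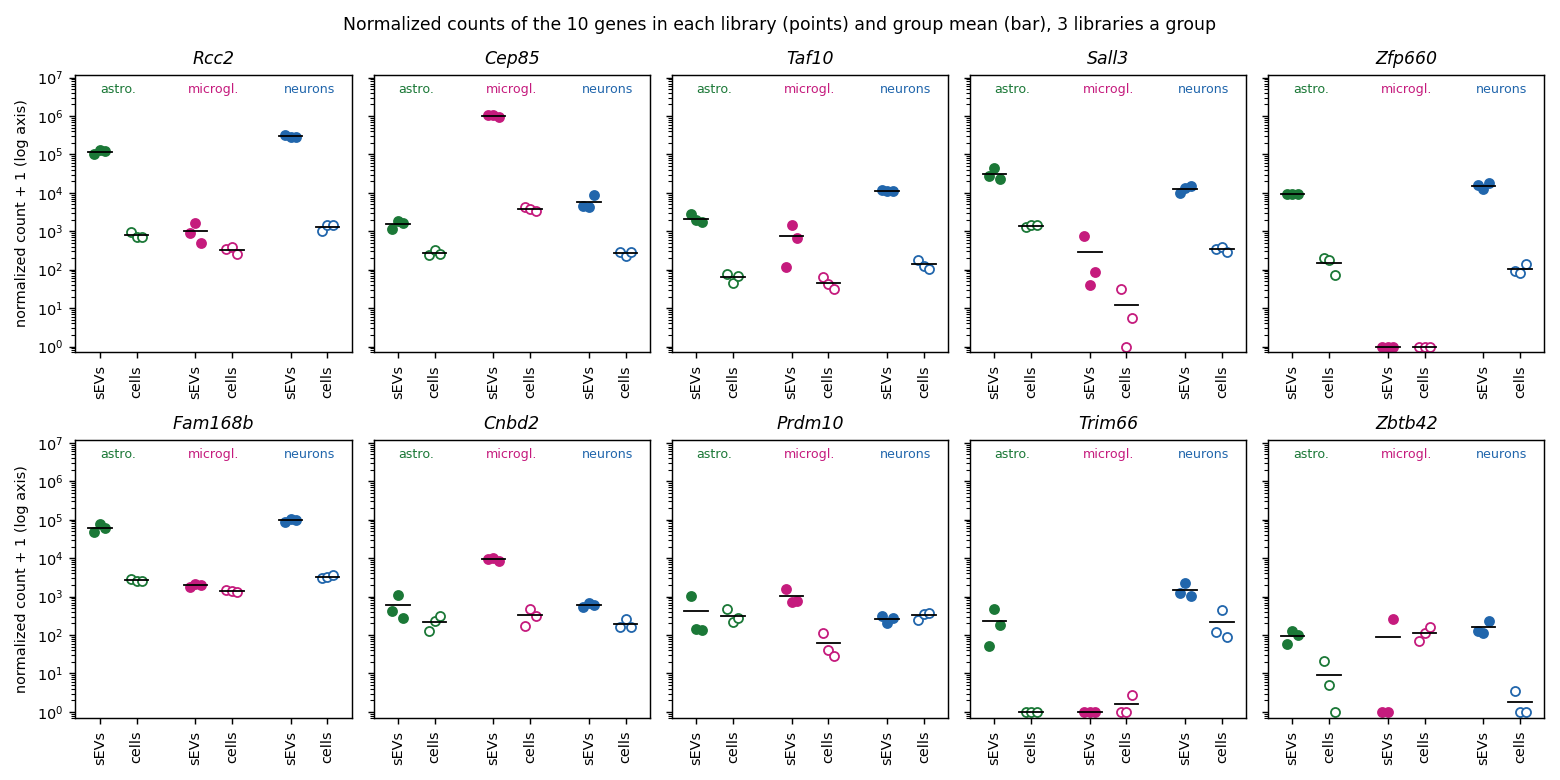
Normalized count plus 1 on a log axis for each of the 10 genes in each library, with sEVs as filled and cells as open circles, astrocytes in green, microglia in magenta and neurons in blue, and the group mean as a bar. Cep85 and Cnbd2 stand highest in microglia sEVs, Rcc2 and Fam168b stand high in astrocyte and neuron sEVs, and Zfp660 and Trim66 lie at the floor in microglia sEVs.

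Rcc2 encodes an RCC1-like protein that binds chromatin and centromeres and is needed for mitotic spindle assembly. It stood at 99897, 133833 and 120283 normalized counts in the astrocyte sEV libraries, against 928, 709 and 697 in astrocytes. In neuron sEVs it reached 321434, 280455 and 277602, against 1006, 1453 and 1478 in neurons. In microglia sEVs it was 887, 1686 and 488, against 345, 387 and 253 in microglia. All sEV libraries of a type lay above all cell libraries of that type, and every astrocyte and neuron sEV library lay above every microglia sEV library. The difference of sEVs minus cells in log2(normalized count + 1) was 7.82 ± 0.34 for neurons, 7.25 ± 0.34 for astrocytes and 1.47 ± 0.34 for microglia (SE of the limma fit). Transcripts of 3 other genes aligned to some part of Rcc2, with a longest alignment of 727 bases and a highest identity of 100%. None of them reached 95% identity along 200 bases or more.

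Taf10 encodes a small subunit of TFIID, the complex that places RNA polymerase II at promoters, and of the SAGA coactivator. It stood at 2741, 1925 and 1692 in astrocyte sEVs, against 78.4, 44.6 and 67.4 in astrocytes. Neuron sEVs held 11746, 10961 and 11098, against 179.7, 123.2 and 106.2 in neurons. The microglia sEV libraries were uneven, at 116.7, 1483 and 662, against 63.0, 40.8 and 30.5 in microglia. Neuron sEVs were highest and close together, no sEV library overlapped the cells of its type, and replicate 1 of microglia sEVs lay nearest the cells. Its log2 differences, with an SE of 0.70, were 6.39 for neurons, 5.05 for astrocytes and 3.48 for microglia, and over the alternatives they ran from 6.09 to 8.85, from 4.82 to 6.65 and from 2.67 to 4.53. The longest Taf10 transcript, Taf10-203, shares 2125 of its 4281 bases with Ilk on the opposite strand, and the library kit does not mark strand, so reads of the 2 genes cannot be told apart there. It also matches the pseudogene Gm4799 on the same strand over 657 bases at 96.7% identity, 15.3% of the transcript. Ilk, an integrin-linked kinase gene, averaged 9923 ± 954 in neuron sEVs and 3105 ± 347 in neurons, higher in sEVs as Taf10 was. Unlike Taf10, it was lower in sEVs in the other types. It averaged 5089 ± 387 in astrocyte sEVs and 7547 ± 708 in astrocytes, and 5352 ± 485 in microglia sEVs and 6567 ± 262 in microglia. The log2 differences of Ilk were -0.57 ± 0.14 in astrocytes (limma adjusted p = 0.00614) and, not called, -0.30 ± 0.14 in microglia (adjusted p = 0.126). The medians of all genes in these types were -0.60 and -0.79. The part of Ilk reads in the Taf10 counts was not tested.

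Sall3 encodes a zinc finger transcription factor of the spalt family that acts in neural development. Astrocyte sEVs held 28042, 43175 and 22993 normalized counts, against 1300.3, 1453 and 1426 in astrocytes. Neuron sEVs held 9703, 13100 and 15199, against 341, 382 and 288 in neurons. In microglia sEVs it was 736, 39.4 and 87.6, against 29.7, 0 and 4.37 in microglia. Sall3 was the 1 gene of the 10 with its highest level in astrocyte sEVs, and in every cell type all sEV libraries lay above the cells. The log2 differences were 4.44 ± 1.04 in astrocytes and 5.21 ± 1.04 in neurons; that of microglia, 4.66 ± 1.04, rests in part on the pseudocount, since 1 cell library was at 0.

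Zfp660 encodes a zinc finger protein, and its row is uncertain in identity: the Ensembl identifier it carries is named Zkscan7, a pseudogene entry, in GENCODE vM21, while a separate Zkscan7 row exists in the table. Astrocyte sEVs held 9467, 9498 and 9529, against 194.7, 176.6 and 73.9 in astrocytes. Neuron sEVs held 15549, 12386 and 18215, against 90.8, 81.3 and 139.2 in neurons. It was listed at 0 in all microglia sEV and all microglia libraries. In astrocytes and in neurons the sEV libraries did not overlap the cells of their type, with log2 differences of 6.11 ± 0.50 in astrocytes and 7.22 ± 0.50 in neurons. The separate Zkscan7 row was low, with at most 95.5 in any astrocyte sEV, 23.3 in any microglia sEV and 92.0 in any neuron sEV library. Transcripts of 1934 other genes aligned to some part of the longest transcript of the Zfp660 row, none over more than 218 bases.

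Prdm10 encodes a PR-domain zinc finger transcription factor, and it was the gene of the 10 with the least difference outside microglia. Microglia sEVs held 1591, 706 and 788, against 114.7, 40.8 and 28.2 in microglia. Astrocyte sEVs held 1014, 145.7 and 136.8, against 468, 214.8 and 271.6 in astrocytes. In neuron sEVs it was 314, 206 and 269, against 250.0, 357 and 369 in neurons. Only in microglia did the sEV libraries all lie above the cells; in astrocytes 1 sEV library was above and the other 2 below all cell libraries, and in neurons the groups overlapped. The log2 differences were 4.21 ± 0.74 in microglia, -0.14 ± 0.74 in astrocytes and -0.31 ± 0.74 in neurons. The sign of the astrocyte value held in 11 of 15 alternatives (-1.09, without sEV replicate 1, to 0.35, without sEV replicate 3), turning positive also without sEV replicate 2, without astrocyte replicate 1 and under quantile normalization, and that of the neuron value in 14 (up to 0.23, under quantile normalization). Microglia had the lowest mean cell level of Prdm10 and the highest mean sEV level, though microglia and astrocyte sEVs overlapped. Transcripts of 863 other genes aligned to some part of a Prdm10 transcript, none over more than 196 bases. The part of their reads in the Prdm10 counts was not tested.

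Zbtb42, a BTB-domain zinc finger transcription factor known from skeletal muscle, was scarce everywhere. Astrocyte sEVs held 58.3, 126.3 and 97.6, against 19.4, 4.10 and 0 in astrocytes. Neuron sEVs held 129.7, 110.6 and 228.4, against 2.55, 0 and 0 in neurons. In microglia sEVs it was listed at 0, 0 and 258.3, against 70.1, 111.8 and 156.8 in microglia. The sEV libraries lay above the cells in astrocytes and neurons, while in microglia 2 sEV libraries lay below and 1 above all cell libraries. With zeros in 3 of the 6 groups, its log2 differences rest in part on the pseudocount, at 6.61 for neurons, 4.27 for astrocytes and -4.08 for microglia, each ± 1.67.

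Trim66 encodes a chromatin-binding corepressor of the TIF1 family. Neuron sEVs held 1229, 2211 and 1017, against 120.9, 447 and 89.5 in neurons. Astrocyte sEVs held 49.99, 468 and 176.3, and the astrocyte libraries were all listed at 0. Microglia sEVs were all listed at 0, and microglia stood at 0, 0 and 1.69. Neuron and astrocyte sEVs both lay above their cells, and neuron sEVs lay above astrocyte sEVs without overlap. The log2 difference was 3.04 ± 0.82 in neurons, and no fold is given in the other types, where a group was at 0. No other transcript aligned to Trim66 or to Zbtb42.

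Fam168b encodes a membrane-associated protein that was described as an inhibitor of neurite outgrowth. Astrocyte sEVs held 48611, 76993 and 61678, against 2813, 2505 and 2577 in astrocytes. Neuron sEVs held 87465, 104873 and 95897, against 3072, 3166 and 3556 in neurons. In microglia sEVs it was 1767, 2156 and 2027, against 1519, 1373 and 1343 in microglia. The sEV libraries lay above the cells in every type, by a wide margin in astrocytes and neurons and narrowly in microglia. With an SE of 0.15 each, the log2 differences came to 4.54 for astrocytes, 0.49 for microglia and 4.88 for neurons. The last 91 bases of its transcript Fam168b-203 lie opposite Arhgef4, whose means were 8881 in astrocyte sEVs against 2023 in astrocytes, 1.22 in microglia sEVs against 16.5 in microglia, and 6363 in neuron sEVs against 3099 in neurons.

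Cep85 encodes a centrosome protein that restrains centrosome separation before mitosis. Microglia sEVs held 1066830.2, 1053358 and 943197 normalized counts, against 4339, 3834 and 3429.6 in microglia. Neuron sEVs held 4429, 4267 and 8631, against 282.2, 225.8 and 292.3 in neurons. Astrocyte sEVs held 1138, 1874 and 1647, against 246.3, 316.6 and 257.6 in astrocytes. The sEV libraries lay above the cells in every type, and the microglia sEV mean was 176.8 times the neuron sEV mean. Fitted differences, with an SE of 0.26, reached 8.05 for microglia, 4.36 for neurons and 2.48 for astrocytes on the log2 scale.

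Cnbd2 encodes a protein with a cyclic nucleotide-binding domain that is needed for sperm function. Microglia sEVs held 9779.7, 10026 and 8336, against 170.5, 482 and 319 in microglia. Neuron sEVs held 535, 686 and 603, against 160.8, 254.6 and 156.1 in neurons. Astrocyte sEVs held 420.2, 1072 and 277.8, against 126.4, 226.2 and 315.0 in astrocytes. The sEV libraries lay above the cells in microglia and neurons and overlapped them in astrocytes, and the neuron and astrocyte sEVs overlapped each other. Fitted differences, with an SE of 0.53, came to 4.97 for microglia, 1.70 for neurons and 1.26 for astrocytes on the log2 scale.

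**Figure D2:**
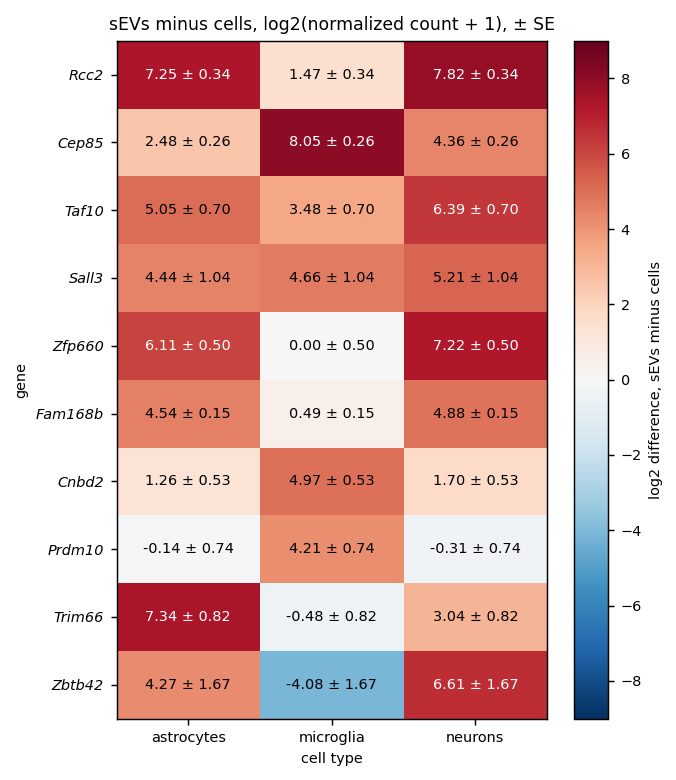
Fitted differences of sEVs minus cells in log2(normalized count + 1), with the SE, for the 10 genes (rows) in astrocytes, microglia and neurons (columns), red for higher and blue for lower in sEVs. Cep85 (8.05), Cnbd2 (4.97) and Prdm10 (4.21) have their largest difference in microglia, and Rcc2 (7.25 and 7.82) and Fam168b (4.54 and 4.88) in astrocytes and neurons; values of Trim66, Zfp660 and Zbtb42 beside a group at 0 rest on the pseudocount.

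Counted over the 10 genes, all sEV libraries lay above all cell libraries for 8 in astrocytes, 7 in microglia and 9 in neurons, as they did for 15.3%, 8.45% and 22.7% of the 19612 genes tested. In the test over these genes, 26.6% were called in astrocytes (8% higher in sEVs), 26.2% in microglia (5.08% higher) and 30% in neurons (11.1% higher) at an adjusted p under 0.05 (limma, Benjamini-Hochberg), and 49.1% in the mean of the 3 types. Nothing is read from the comparison of these counts, since this contrast chose the genes. The exceptions were Cnbd2 and Prdm10 in astrocytes, Zfp660, Trim66 and Zbtb42 in microglia, and Prdm10 in neurons.

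The counts of Cep85 and Cnbd2 are uncertain in their division between the 2 genes and others that share transcript sequence with them. At 95% identity or more along 200 bases or more, transcripts of 4 other genes aligned to Cep85, Cnbd2 among them, and of 9 to Cnbd2. The noncoding transcript Cep85-207, 1010 bases long, aligned to Cnbd2-202 over 351 bases at 99.7% identity and over 203 bases at 99.5%, in all 54.9% of Cep85-207. Reads from such a stretch can be assigned to any of the genes that share it, and the table does not say which transcript they came from. The ratio of Cep85 to Cnbd2 was 109.1, 105.1 and 113.2 in the 3 microglia sEV libraries, against 25.4, 7.96 and 10.7 in microglia. In neuron sEVs it was 8.28, 6.22 and 14.3, against 1.76, 0.887 and 1.87 in neurons, and in astrocyte sEVs 2.71, 1.75 and 5.93, against 1.95, 1.40 and 0.818 in astrocytes. The ratio was higher in every microglia sEV library than in any library of another group.

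The 3′ ends of Rcc2, Fam168b and Cep85 transcripts are shown because cDNA synthesis started at the poly(A) tail, and the stretches of other genes that match the end of Cep85-207 because they show the shared sequence. The first 4 lines are the last 30 bases of GENCODE vM21 transcripts, and the other 3 are the 30 bases of a transcript that align to the end of Cep85-207, written in its direction. Capitals mark AATAAA, which in the first 5 lines is the polyadenylation signal on the transcript's own strand. Rcc2 is on chromosome 4, Fam168b on chromosome 1, Cep85 on chromosome 4, Cnbd2 on chromosome 2, Gm42031 on chromosome 8 and Gm42427 on chromosome 5, as annotated there.
Rcc2-202: tttaAATAAAcggcgtcattgtttactctg
Fam168b-203: AATAAAgattgacttgtgttgcatattctg
Cep85-201: ttgattacagAATAAAacatttaacaaaca
Cep85-207: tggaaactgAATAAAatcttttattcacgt
Cnbd2-202: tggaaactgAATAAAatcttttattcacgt
Gm42031-201: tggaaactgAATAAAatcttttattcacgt
Gm42427-201: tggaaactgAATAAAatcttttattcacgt
The end of the long protein-coding transcript Cep85-201 differs from that of Cep85-207, whereas 0 of 30 bases differ between Cep85-207, Cnbd2-202, Gm42031-201 and Gm42427-201. In Gm42031-201 and Gm42427-201 the matched bases lie on the opposite strand, so they are not the 3′ ends of those transcripts and the capitals mark no signal of theirs.

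A further 9 genes with values in the table align to Cep85-207 at 90% identity or more over at least 200 bases; they were chosen by this rule after values had been seen. Among Cep85, Cnbd2 and these 9, microglia sEVs held the highest sEV mean of 5 genes and neuron sEVs that of 6. Gm42031 averaged 14407 ± 1142 in microglia sEVs and 1463 ± 74.2 in microglia, with 128.2 ± 51.2 in neuron sEVs and 39.0 ± 7.24 in neurons. Gm43305 averaged 24318 ± 4320 in microglia sEVs and 2140.4 ± 437 in microglia. Apobec3 was also highest in microglia sEVs, yet its cell mean was higher still, 7059 ± 307 in microglia sEVs and 8958 ± 783 in microglia. Gm42427, which holds the printed bases on its opposite strand, ran the other way, with 1190.3 ± 271 in microglia sEVs and 112.3 ± 34.9 in microglia, against 105342 ± 6705 in neuron sEVs and 367 ± 56.5 in neurons. Genes that share sequence with Cep85-207 were highest in microglia sEVs in some cases and in neuron sEVs in others. They match different parts of it. Gm42031 aligned to bases 420 to 785 at 96.4% identity, besides the printed end, and Gm4316 to bases 725 to 1010 at 95.5%. Whether the part matched goes with the levels was not tested.

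**Figure D3:**
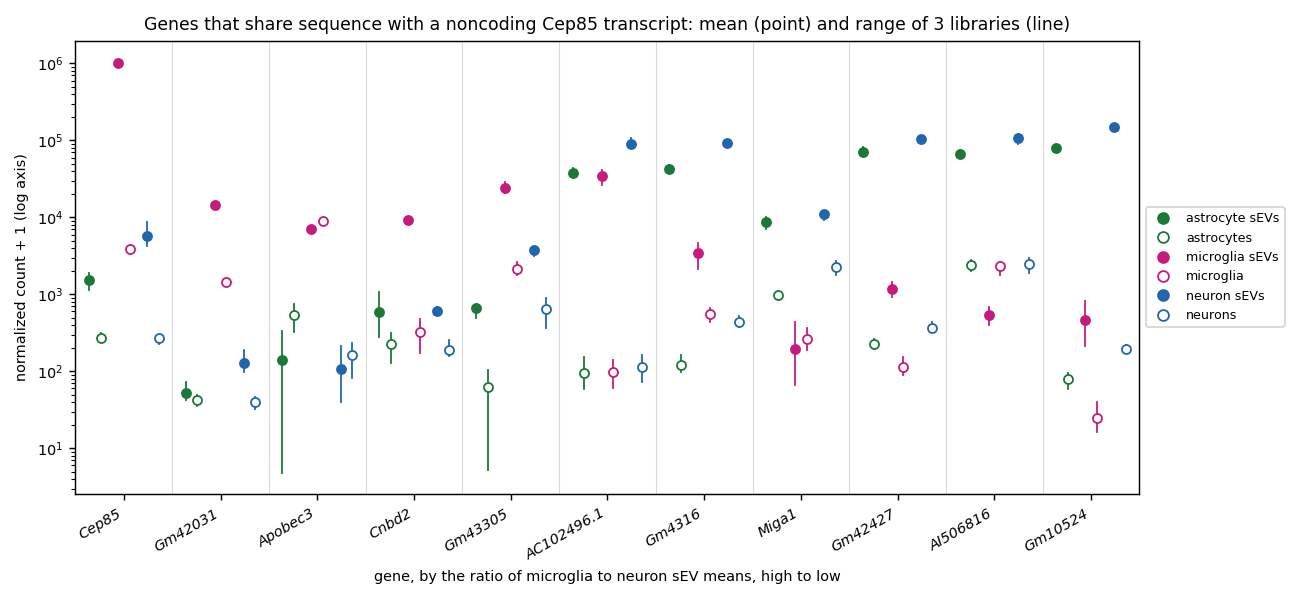
Mean (circle) and range (line) of normalized count plus 1 on a log axis for Cep85, Cnbd2 and 9 genes that share sequence with Cep85-207, sEVs filled and cells open, ordered by the ratio of microglia to neuron sEV means. Cep85, Gm42031, Apobec3, Cnbd2 and Gm43305 have their highest sEV mean in microglia sEVs, and the 6 genes to their right in neuron sEVs.

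The cell libraries, compared by type, show which source cells held each mRNA, a contrast that did not choose the genes although the same libraries stood in the one that did. In astrocytes against microglia, 5 of the 10 were called higher and 2 lower, where 43.6% and 20.8% of the 18410 genes tested were called so, 64.4% in all. In astrocytes against neurons 0 were called higher and 2 lower (10.4% and 22.1% of all genes, 32.5% in all), and in microglia against neurons 2 higher and 7 lower (19.9% and 51.8%, 71.7% in all). The median of all genes was 0.84, -0.25 and -1.26 in these comparisons in log2 units, so a difference of that size is common to the libraries.

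Cep85 was the 1 gene that was both abundant and highest in microglia cells. Its counts may include reads of other genes that share its transcript sequence, a part that was not tested. Cep85 fell by 3.82 ± 0.20 on the log2 scale in astrocytes against microglia (limma adjusted p = 6.5e-07) and rose by 3.86 ± 0.20 in microglia against neurons (adjusted p = 4.59e-07). Zbtb42, at lower levels, was likewise highest in microglia, by 6.15 ± 1.07 against neurons (adjusted p = 0.000821). In astrocytes against microglia it fell by 4.52 ± 1.07 (adjusted p = 0.00536). Cnbd2 was not called in any pair, with adjusted p of 0.380, 0.841 and 0.235 in the order above, and its microglia libraries, with a mean of 323.9 ± 155.7, overlapped both other types. Under quantile normalization it was called in both pairs with microglia (adjusted p = 0.0379 against astrocytes and 0.0023 against neurons).

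Sall3 and Zfp660 marked astrocytes and neurons off from microglia. Sall3 averaged 1393 ± 81.6 in astrocytes and 11.4 ± 16.0 in microglia, a log2 difference of 7.99 ± 1.02 (adjusted p = 0.000158), and in microglia against neurons it fell by 5.94 ± 1.02 (adjusted p = 0.00078), where neurons averaged 337 ± 47.1. Between astrocytes and neurons its libraries did not overlap, yet it was not called (2.05 ± 1.02, adjusted p = 0.165), although it was with a pseudocount of 10, under quantile normalization and in a fit of only these groups, with an adjusted p as low as 0.000234. Zfp660 was called in both pairs with microglia, in which it was listed at 0 (adjusted p = 6.49e-06 against astrocytes and 7.17e-06 against neurons). Trim66 was called lower in astrocytes, listed at 0, than in neurons (adjusted p = 9.02e-05) and lower in microglia than in neurons (adjusted p = 2.99e-05).

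Rcc2, Fam168b and Prdm10 were called lower in microglia than in both other types. The Rcc2 means were 1312 ± 266 for neurons, 778 ± 130.3 for astrocytes and 328 ± 69.0 for microglia. It was called in all pairs, by 1.25 ± 0.25 in astrocytes against microglia (adjusted p = 0.00197), by -2.00 ± 0.25 in microglia against neurons (adjusted p = 0.0001) and, narrowly, by -0.74 ± 0.25 in astrocytes against neurons (adjusted p = 0.0483). That last call was lost in 10 of 14 alternatives, with adjusted p up to 0.203, among them each fit that left out an astrocyte library or neuron replicate 2 or 3. Prdm10 rose by 2.54 ± 0.55 in astrocytes against microglia (adjusted p = 0.00331) and fell by 2.63 ± 0.55 in microglia against neurons (adjusted p = 0.00233), and both calls were lost under quantile normalization (adjusted p = 0.0935 and 0.395), as was that of Rcc2 in astrocytes against microglia (adjusted p = 0.117). Fam168b was called higher in astrocytes than in microglia, by 0.90 ± 0.12, and lower in microglia than in neurons, by -1.21 ± 0.12 (adjusted p = 0.000187 and 2.39e-05), values that lie within 0.07 of the median of all genes. Taf10 was not called between astrocytes and microglia (0.52 ± 0.46, adjusted p = 0.350), where its libraries overlapped and the alternatives ran from -0.94 to 1.28, with 2 of 14, those with equal totals, calling it (lowest adjusted p = 0.0362). It fell by 1.61 ± 0.46 in microglia against neurons (adjusted p = 0.012), a direction that turned round under quantile normalization (0.81, adjusted p = 0.171).

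Relatives of the 10 genes were read from the test of sEVs against cells over all genes, for lists put together by gene name or complex. Of the spalt genes Sall1, Sall2 and Sall4, 2 were tested and both were called higher in astrocytes and in neurons and not in microglia. Of all genes, 8% were called higher in astrocytes, 11.1% in neurons and 5.08% in microglia. Sall1 averaged 8310.1 ± 3684 in astrocyte sEVs and 395 ± 77.3 in astrocytes, a rise of 4.30 ± 0.51 on the log2 scale (adjusted p = 1.77e-05), and 7954 ± 2246 in neuron sEVs and 194.2 ± 17.9 in neurons (5.32 ± 0.51, adjusted p = 1.34e-06). Sall2 averaged 12718 ± 4003 in astrocyte sEVs and 1174 ± 172.1 in astrocytes (3.40 ± 0.50, adjusted p = 0.000134) and was listed at 0 in microglia sEVs and microglia.

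Trim28, the TIF1 gene that serves zinc finger repressors as a corepressor, rose in all 3 types. It averaged 8165 ± 908 in astrocyte sEVs and 1694 ± 159.8 in astrocytes (2.27 ± 0.29, adjusted p = 3.63e-05), 1445 ± 547 in microglia sEVs and 636 ± 128 in microglia (1.12 ± 0.29, adjusted p = 0.00976), and 9346 ± 879 in neuron sEVs and 2655 ± 602 in neurons (1.84 ± 0.29, adjusted p = 0.000175). The microglia call was lost in a fit of only those 6 libraries. Trim24 and Trim33, its TIF1 relatives, were not called in any type. Of 15 other TFIID subunits, 1 was called higher and 3 lower in the mean of the cell types, where 12% and 37.1% of all genes were called higher and lower. Taf13 rose by 1.17 ± 0.18 (adjusted p = 0.000103), while Tbp, the subunit that binds the TATA element, fell by 0.91 ± 0.23 (adjusted p = 0.00439), and Taf8 by 0.89 ± 0.23 (adjusted p = 0.00499), both close to the all-gene median of -0.93. The fitted difference of Taf10 in the same mean was 4.97 ± 0.40.

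Of 7 RCC1-related and chromosomal passenger genes, 3 were called higher and 0 lower in the mean of the cell types, where 12% and 37.1% of all genes were, with a list median of 0.45 against -0.93 for all genes. They were Rcc1l at 1.29 ± 0.34 (adjusted p = 0.0053), Birc5, the passenger protein survivin, at 1.23 ± 0.37 (adjusted p = 0.013), and Ran, the nuclear transport GTPase, at 0.29 ± 0.10 (adjusted p = 0.0296, a call lost in several alternatives), against 5.51 ± 0.20 for Rcc2. Of 35 tested Cep genes, 4 were called higher and 9 lower in the mean of the types, a higher share close to the 12% of all genes, with Cep83, Cep20 and Cep350 higher by 1.30 ± 0.24, 1.03 ± 0.21 and 0.84 ± 0.20 (adjusted p = 0.000449, 0.000829 and 0.00281). In microglia 1 was called higher and 9 lower, beside 5.08% and 21.2% of all genes, and that 1, Cep83, differed by 1.38 ± 0.42 (adjusted p = 0.0239), a call lost without microglia sEV replicate 1 or 3, without microglia replicate 3 and in a fit of only those groups, against 8.05 ± 0.26 for Cep85. Cep350 was among the 9 called lower in microglia, at -1.18 ± 0.35 (adjusted p = 0.0196), and Cep20 was not called there. Fam168a, the paralog of Fam168b, was not called in any type, with log2 differences, each ± 1.54, of 0.58 for astrocytes, 0.16 for neurons and -3.07 for microglia. The microglia value rests in part on the pseudocount. The means there were 335 ± 525 in sEVs, with the lowest library at 0, and 332 ± 48.5 in cells.

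Of 375 tested Zfp genes, 8 were called higher and 115 lower in microglia sEVs (5.08% and 21.2% of all genes), 26 and 20 in astrocyte sEVs (8% and 18.6%) and 35 and 15 in neuron sEVs (11.1% and 18.9%). The list medians were -2.44, -0.12 and 0.01 against -0.79, -0.60 and -0.47 for all genes in these types. Of 39 Zbtb genes, 0 were called higher and 13 lower in microglia (5.08% and 21.2% of all genes), 8 and 1 in astrocytes (8% and 18.6%) and 5 and 1 in neurons (11.1% and 18.9%). Zbtb39 rose by 5.08 ± 0.87 in astrocytes (adjusted p = 0.00053) and 6.33 ± 0.87 in neurons (adjusted p = 5.58e-05). Zbtb38 rose by 3.84 ± 0.53 in astrocytes (adjusted p = 7.97e-05). Under quantile normalization the Zbtb counts were 4 higher and 4 lower in microglia, 13 and 1 in astrocytes and 16 and 0 in neurons, and the Zfp counts 24 and 61, 45 and 14, and 73 and 18. Of all 19612 genes, 2957 and 2402 were called so in microglia, 2624 and 2681 in astrocytes and 3615 and 3439 in neurons. Of 9 tested Prdm genes, 0 were called higher and 2 lower in microglia (5.08% and 21.2% of all genes), where Prdm10 differed by 4.21 ± 0.74. Prdm4 rose by 1.63 ± 0.32 in the mean of the cell types (adjusted p = 0.000701), Prdm9, the meiotic recombination factor, was not called in any type, and Prdm16 fell by 1.29 ± 0.34 in that mean (adjusted p = 0.00518), a call lost with a pseudocount of 10 and a direction that turned round under quantile normalization. Prdm16 was called higher in neurons (2.34 ± 0.58, adjusted p = 0.00638), and its microglia sEV libraries were all listed at 0. The Zfp genes with the smallest p in the mean of the types, Zfp709, Zfp143 and Zfp408, were each listed at 0 in all sEV libraries of 1 type, microglia for Zfp709 and Zfp408 and astrocytes for Zfp143. The scarce Zbtb12 averaged 66.4 ± 21.8 in neuron sEVs and was listed at 0 in all neuron libraries.

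**Figure D4:**
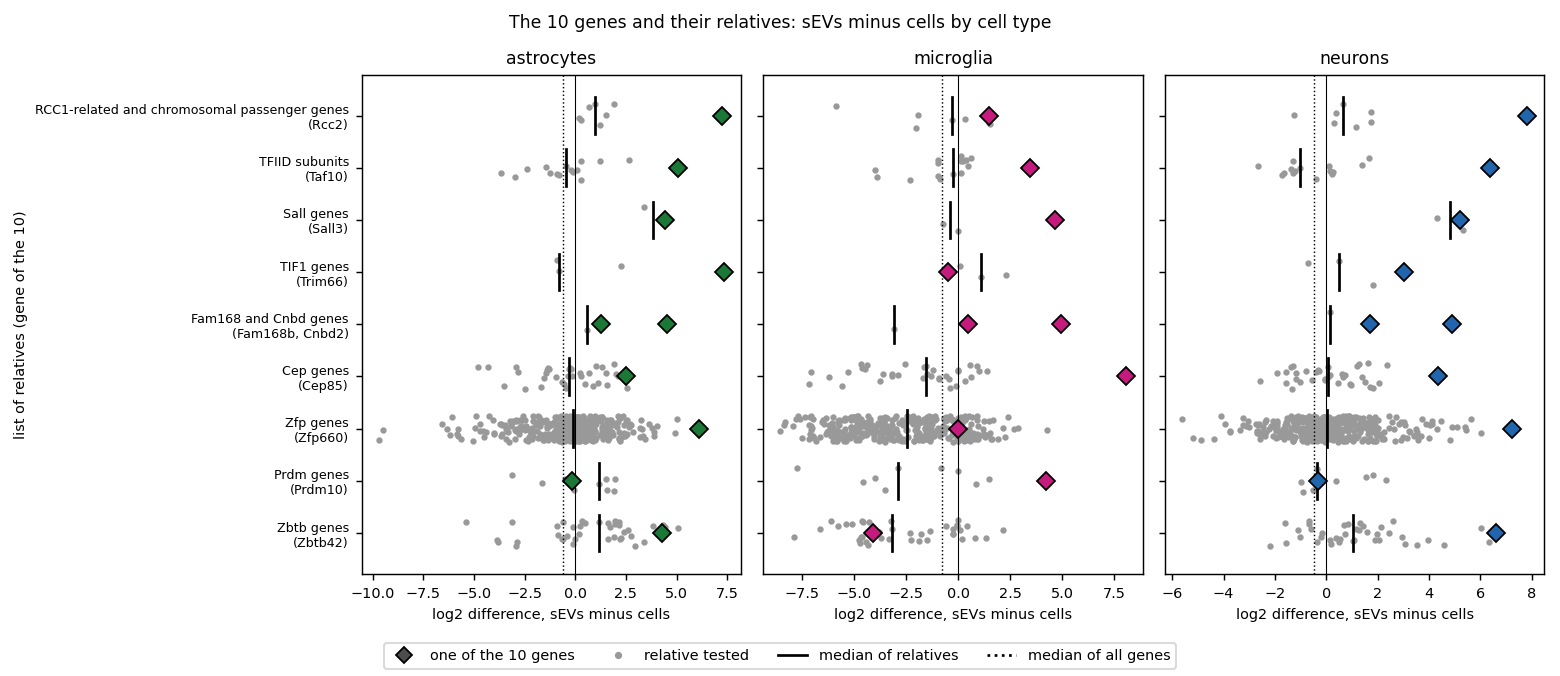
Differences of sEVs minus cells in log2(normalized count + 1) for the 10 genes (diamonds) and the tested members of each list of relatives (grey points), by cell type, with the list median as a bar and the median of all genes as a dotted line. Sall1 and Sall2 lie beside Sall3 in astrocytes and neurons, while in microglia Cep85 (8.05) lies above every other Cep gene tested.

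Across the 18 libraries, Rcc2 and Fam168b had the most alike profiles of the 10, with a Pearson r of 0.993 of log2(normalized count + 1), and each was the other's most alike gene of all those tested. Cep85 and Cnbd2 followed with 0.938, and Zfp660 and Fam168b with 0.916. These values describe libraries that fall into 6 groups and share depth and normalization, so no p is given. The genes most alike to Rcc2 after Fam168b were Rsph3b (0.989) and Rnf10 (0.980, with 3 predicted genes passed over), and to Cep85 they were Zcrb1 (0.966), Snhg3 (0.952) and Oaz1 (0.950). For Taf10 they were Ntan1 (0.975), Usf2 (0.969) and Rpl27a (0.968), for Sall3 Foxo3 (0.964), Tmem170 (0.961) and Pink1 (0.958), and for Trim66 Ncs1 (0.975), Tanc2 (0.955) and Gprin2 (0.951). Zfp660 was most like Atxn7l3b (0.989), Nynrin (0.988) and Klhdc7a (0.983). Fam168b was, after Rcc2, most like Rsph3b (0.987) and Kpnb1 (0.984), and Cnbd2, after Cep85, most like Ccz1 (0.893) and Zcrb1 (0.886). The least shared profiles were those of Prdm10, whose nearest genes were Lsm1 (0.779), Polr2j (0.759) and Polr2d (0.745), and of Zbtb42, with Nadk (0.851), Hs1bp3 (0.822) and Wdfy2 (0.820).

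The longest annotated transcripts of the 10 genes ran from 2277 bases in Cnbd2 to 9250.0 in Trim66. Their median length was 4669.5 bases, against 2994 for all genes tested, and their median GC content 51.8% against 49.0%. AATAAA stood within the last 50 bases of 9 of the 10 transcripts, all but that of Sall3, and of 54.6% of the genes tested. Rcc2 and Zbtb42 had the highest GC content, 58.0% and 58.2%, and Zfp660 the lowest, 42.7%.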

How the data were processed

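The authors deposited 1 table of normalized counts per gene, a signal that is not a whole-read count, with 18 library columns and 6 group means; the means were not used, and 0 other per-sample columns were left out. Salmon 1.8.0, DESeq2 and the GRCm39 build are named per the submitters' processing notes; the normalization settings are not given in the sources used here. Of the deposited values below 100, 2.88 to 7.91% per library were whole within 0.001, so raw counts could not be recovered, no counting interval is given, and the values were tested on a log scale.

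Log2(normalized count + 1), a pseudocount of 1, was fitted with limma 3.58.1 (R 4.3.3; trended variance, Benjamini-Hochberg adjustment, called under 0.05). The first fit held 18 libraries and 6 group means and gave sEVs minus cells in each type and their mean (19612 genes that reached 10 in 3 or more libraries); the second held the 9 cell libraries and the 3 pairs of types (18410 genes). Both were tested on simulated data. Fold changes on this scale can understate those of low genes. Where single libraries were at 0, they can also exceed the difference between the group means. Transcripts were aligned with blastn 2.17.0 to GENCODE vM21 (GRCm38), in which 99.8% of the genes tested were found; as the build differs from the table's, no coordinates are given.

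The 10 genes and the lists of relatives were chosen with earlier results of these data known. Named were the 10 genes, up to 3 members of each list with the smallest p in the mean of the types (all of lists of 4 or fewer), and the 3 most alike genes of each of the 10, predicted genes passed over. Genes that share the Cep85 stretch were named after their values had been seen. Samples with the same replicate number were not paired: the correlation of their deviations from the group means ran from -0.04 to 0.04 over 9 pairs of sEV and cell libraries.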

Additional observations from a re-analysis of the deposited data

Results flagged for a closer look

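Of 36 genes looked at, 3 had all sEV libraries on one side of the cells in one type and on the other side in another; the difference between types was not tested. Cep350, a centriole protein gene, differed in sEVs against cells by 2.10 in astrocytes and 1.61 in neurons and by -1.18 in microglia (log2). Prdm16, a zinc finger gene, differed by 1.51 in astrocytes, 2.34 in neurons and -7.73 in microglia, where the sEV libraries were listed at 0 and the value rests on the pseudocount. Ilk, which overlaps Taf10 on the opposite strand, differed by 1.68 in neurons, -0.57 in astrocytes and -0.30 in microglia.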

How the results depend on the processing

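The causes of the moves below were not tested. Quantile normalization moved 26 of the fitted differences of the 10 genes in sEVs against cells by more than the replicate spread and 14 by less. Prdm10 in astrocytes and neurons and Trim66 in microglia changed sign under it. It turned round Taf10 in microglia against neurons (0.81 against -1.61) and Prdm16 in the mean of the types (0.45 against -1.29). It also shifted the split of higher and lower calls in sEVs against cells to 2624 and 2681 in astrocytes (1569 and 3646 otherwise), 2957 and 2402 in microglia (996 and 4151), 3615 and 3439 in neurons (2185 and 3705) and 4711 and 4225 in the mean (2355 and 7283), and moved the median of all genes in that mean to 0.07 from -0.93. Between cell types it gave 5898 and 4840 in astrocytes against microglia (8028 and 3822), 4192 and 3155 in astrocytes against neurons (1916 and 4065) and 5763 and 6043 in microglia against neurons (3666 and 9530). With equal totals, astrocytes against microglia gave 10523 and 2619, and with equal totals without the 10 genes and Ftl1, 10479 and 2640; the last setting gave 1616 and 3422 in microglia sEVs against microglia. Fitting only the groups compared called 9383 genes in neurons, against 5890 with all libraries.

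Leaving out 1 library at a time gave 3975 to 5354 calls in astrocytes, 3811 to 5760.0 in microglia, 4546 to 5050.0 in neurons and 8584 to 10107 in their mean. Between cell types it gave 10545 to 11134 in astrocytes against microglia, 4125 to 5251 in astrocytes against neurons and 11630 to 12141 in microglia against neurons. With a replicate block the counts were 5164, 5114, 5871 and 9536 in the same order, and with a block nested in cell type, chosen after seeing the data, 4477, 4503, 5232 and 9086. The type with the highest sEV mean was the same for all 10 genes in every alternative except quantile normalization, where Zbtb42 differed.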

Other observations

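In the authors' deposited table, the mean column of microglia sEVs equals the mean of replicates 1 and 2 of a row and replicate 3 of the next row, within 0.01 plus 0.01% of the value, in all 17548 genes in which either is above 0. Of 18481 genes with a value in that column or in their own 3 libraries, 1477 had a deposited mean equal to the mean of those libraries. Replicate 3 correlated with replicate 1 across genes with r = 0.865 in its own row and 0.316 in the next. Cep85 stands at 706729 in that column of the authors' deposited table, while the mean of its 3 libraries is 1021128. Fam168b stands at 1308 there, with a library mean of 1984, and Zbtb42 at 190.5, with a library mean of 86.1. The other 5 mean columns equal the means of their libraries.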
